A study of Mus musculus with 8 samples.

Results

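The genes described here encode the subunits of the oxidative phosphorylation system, taken by symbol as those matching the usual stems for complex I (Nduf), complex II (Sdh), complex III (Uqcr), complex IV (Cox) and complex V (Atp5), together with the mitochondrial genes mt-Nd, mt-Co, mt-Atp and mt-Cytb. There were 97 members, of which 84 are encoded in the nucleus and 13 in the mitochondrial genome. All 97 were among the 46517 genes of the bulk RNAseq tables, and 94 were among the 24051 genes of the snRNAseq table. Cox4i1, Ndufa13 and Cox8c were not analysed in nuclei. Cox8c, a testis isoform, had a TPM (transcripts per 1000000, a level per length) of 0 in all 4 bulk libraries, so 83 nuclear-encoded members could be tested in bulk. The rule works by name, and it takes in Atp5s and Atp5sl, which are not core subunits of the ATP synthase.

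The respiratory chain passes electrons through complexes I to IV in the inner mitochondrial membrane, and complex V uses the proton gradient that results to make ATP. Complexes I, III, IV and V mix subunits made in the cytosol from nuclear transcripts with subunits made inside the organelle from mitochondrial transcripts, whereas complex II is encoded entirely in the nucleus. Neurons depend heavily on this pathway for synaptic transmission and ion pumping. Several complex IV subunits and the complex V c-ring subunit exist as paralogous isoforms with different tissue distributions. Mitochondrial transcripts are made and translated inside the organelle, outside the nucleus.

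The samples were adult hippocampi from Gfap-Cre;Wls fl/- mice (mutant) and Gfap-Cre;Wls fl/+ mice (control), each sample holding both hippocampi of 1 mouse. All mice of both genotypes carried Gfap-Cre and 1 floxed Wls allele, and the genotypes differ in the other allele, null in the mutant and wild type in the control. Wls encodes a protein that Wnt ligands need for secretion, and Gfap-Cre acts in a subset of cortical progenitors, so cells of other origin keep their floxed allele. The question was how these transcripts compare between a hippocampus that lacks most dentate granule cells (DGCs) and its control. Bulk RNAseq and snRNAseq each had 2 mutant and 2 control mice. The p-values below measure the spread between these single mice, and an exact two-sided permutation test of 2 against 2 cannot go below p = 0.333.

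Bulk libraries held 56.0 to 79.6 M expected counts (M, 1000000). The snRNAseq samples held 5304 and 10460 mutant and 6469 and 7192 control nuclei, with 26.3 and 76.5 M and 39.0 and 61.6 M UMIs, in replicates 1 and 2 in that order, as for all pairs of values below. Between 8 and 21 barcodes were shared by any 2 samples, at most 0.309% of the smaller one. Wls was at 2.61 and 5.44 TPM in mutant bulk and 10.5 and 10.1 TPM in control bulk. It was at 6.96 and 11.7 UPM against 20.7 and 27.4 UPM over all nuclei, but at 4.83 and 5.55 UPM against 3.34 and 4.43 UPM in GC nuclei, where the mutants were not lower. Bulk replicate 2 of both genotypes went against its label of male, with Xist at 101 and 175 TPM (0.35 and 0.12 TPM in replicate 1) and Ddx3y at 0.17 and 0.30 TPM (28.9 and 30.9 TPM). In mutant bulk the summed TPM of 10 choroid plexus markers was 1131 and 9273 against 183 and 80.9 in controls, that of 7 DGC markers was 71.2 and 60.9 against 356 and 318, and that of 4 blood markers was 714 and 1086 against 554 and 444, with no marker at 0 in these lists.

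The cell types of nuclei are those the authors deposited, and 18 of 21 had at least 10 nuclei in each sample. The GC class held 90 and 463 mutant and 2336 and 2007 control nuclei and had DGC markers at 1457 UPM (UMIs per 1000000 UMIs, a level that is not per length) over all samples, against 46.5 UPM in CA1, so its markers fit dentate granule cells. 2 of the 18 classes went against their names. The class named inhibitory neurons 14 had 2441 UPM of endothelial, 1723 UPM of pericyte and 1138 UPM of meningeal markers and 386 UPM of inhibitory markers, which reached 11936 UPM in inhibitory neurons 12. The class named excitatory neurons 19 had 742 UPM of meningeal and 210 UPM of excitatory markers, below the 661 UPM of excitatory markers in CA1. Both are called here by their deposited names only.

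Several members have near-identical copies elsewhere in the genome, and these bear on the bulk values, because the authors' counting divided reads that fit several genes. A comparison of transcripts found 26 matches to 21 members (14 nuclear, 7 mitochondrial), with at least 98% identity over at least 80% of the shorter transcript. Of the 26, 1 was listed in the nuclei table. Another, Mir688, is a miRNA of 75 bases that lies inside Atp5g2 itself and had a count of 0 in each bulk library. The 7 copies of mitochondrial genes lie together on the minus strand of mm10, between chr1:24611535-24616197, annotated as unprocessed pseudogenes. The start of mt-Co3, which encodes a catalytic-core subunit of complex IV, and of its copy Gm28437 (chr1:24613189-24613971) are shown because their reads cannot be told apart over all 783 bases of the copy. The start of mt-Nd3, a complex I core subunit, and of Gm28438 (chr1:24612775-24613119) are shown because 1 base in 345 separates them, T3C with positions counted from the first base and the differing base in capitals.
mt-Co3: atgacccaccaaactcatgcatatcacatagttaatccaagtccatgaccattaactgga
Gm28437: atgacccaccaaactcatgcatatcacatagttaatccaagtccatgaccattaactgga
mt-Nd3: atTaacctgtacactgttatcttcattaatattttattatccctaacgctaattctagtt
Gm28438: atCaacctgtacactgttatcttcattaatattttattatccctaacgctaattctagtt

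For the nuclear genes the copies are mostly processed pseudogenes, such as Gm12338 (chr11:75599763-75599954, minus strand). It matches bases 230 to 421 of the transcript of Cox7c, a small complex IV subunit (chr13:86044816-86046904, minus strand), without a mismatch, and both are shown because the copies of Cox7c held more reads than Cox7c itself.
Cox7c: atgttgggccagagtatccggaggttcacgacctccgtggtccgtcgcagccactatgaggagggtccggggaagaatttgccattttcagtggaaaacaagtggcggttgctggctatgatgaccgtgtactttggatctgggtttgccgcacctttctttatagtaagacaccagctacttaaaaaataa
Gm12338: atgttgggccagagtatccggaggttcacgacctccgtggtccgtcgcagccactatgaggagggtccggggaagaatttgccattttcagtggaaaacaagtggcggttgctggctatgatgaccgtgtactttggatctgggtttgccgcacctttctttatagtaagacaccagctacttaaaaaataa

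Of the summed bulk counts of Cox7c and its copies, 72.8% and 63.2% in mutants and 69.8% and 64.3% in controls stood under the copies. Atp5g2, Atp5l and Ndufb4 also had the larger part of their summed counts in copies in every library, between 56.6% and 89.9%. Among the mitochondrial genes the share was highest for mt-Atp6, at 92.0% and 87.1% in mutants and 88.7% and 88.0% in controls. For mt-Co3 it was 88.5% and 86.8% in mutants against 70.5% and 80.5% in controls, without overlap. The division also varied between libraries of 1 genotype, as for mt-Nd4l at 4.02% and 37.5% in mutants. Bulk values of these genes are therefore also given as sums with their copies.

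In bulk hippocampus, the nuclear-encoded members stood slightly higher in the mutants. No member of the 83 tested passed the threshold (edgeR quasi-likelihood test, Benjamini-Hochberg FDR under 0.05), against 1.21% of all 20687 genes, 0.198% called higher and 1.01% called lower. At an unadjusted p under 0.05, 29 members were higher and 0 lower, beside 8.86% and 9.94% of all genes. With replicate number as a term, which in bulk divides the libraries as Xist does, 0 members were called, 33 were higher and 0 lower at that level, and the median was 0.14. The log2 fold change of mutant over control was above 0 for 77 of 83, with a median of 0.14, beside 0.011 for all genes. TPM values did not overlap between the genotypes for 36 members, 33 with both mutants above both controls and 3 below, beside 15% and 34.1% of all genes.

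The summed level of the 84 nuclear-encoded genes was 7311 and 7506 counts per 1000000 (CPM) in mutants and 6916 and 6728 CPM in controls. Per 1000000 counts outside the mitochondrial genome it was 7737 and 7888 against 7252 and 7055. Both mutants stood above both controls on either scale. Fewer cells of a type and less RNA per cell cannot be told apart in bulk samples. The DGC and choroid plexus markers given above moved with these values, and their part in the result was not tested. Of the other marker lists, those of astrocytes (832 and 806 against 1025 and 1052 TPM) and ependymal cells (34.8 and 35.3 against 19.5 and 13.5 TPM) did not overlap between genotypes, while those of excitatory neurons did (3178 and 2981 against 3113 and 3219 TPM).

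By complex, assigned from the symbol, the bulk medians of the nuclear-encoded members were close together. Ndufa4 and Ndufa4l2 are thus counted under complex I. Complex I, the NADH dehydrogenase, lay at a median of 0.15 (log2 fold change), and 35 of 37 genes were above 0. Complex II, succinate dehydrogenase, had 0.077, with 4 of 4 above 0, and complex III, the cytochrome bc1 complex, had 0.14, with 8 of 8 above 0. Complex IV, cytochrome c oxidase, had the highest median at 0.21, with 15 of 17 above 0, and complex V, the ATP synthase, had 0.12, with 15 of 17. Differences between complexes were not tested.

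The lowest p among nuclear-encoded members belonged to Cox8a, the widely expressed isoform of the smallest complex IV subunit. Its TPM was 797 and 763 in mutants and 631 and 632 in controls, without overlap, and its log2 fold change was 0.39 (SE 0.064, edgeR FDR 0.070). Ndufa13, an accessory subunit of complex I, was at 114 and 113 TPM against 101 and 96.5 TPM, a log2 fold change of 0.29 (edgeR FDR 0.0995). Uqcr10, a small complex III subunit, was at 273 and 268 TPM against 234 and 227 TPM, a log2 fold change of 0.33 (edgeR FDR 0.105). None of these genes passed the threshold in this fit.

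No core subunit passed the threshold in bulk. Ndufs1, the largest complex I subunit, was at 108 and 120 TPM in mutants and 123 and 121 TPM in controls, and Ndufv1, which binds the NADH-oxidising flavin, was at 178 and 187 TPM against 188 and 174 TPM. Sdha, the flavoprotein of complex II, was at 233 and 267 TPM against 272 and 261 TPM. Uqcrfs1, the Rieske iron-sulfur protein of complex III, was at 111 and 129 TPM against 127 and 121 TPM. These groups overlapped for Ndufv1, Sdha and Uqcrfs1, and both Ndufs1 values lay below both controls on the TPM scale although its edgeR log2 fold change, on the TMM scale, was 0.051 (edgeR FDR 0.69). Cox5a (300 and 333 against 302 and 277 TPM, log2 fold change 0.21), Atp5a1 (574 and 654 against 600 and 570 TPM, 0.14) and Atp5b (1048 and 1010 against 959 and 933 TPM, 0.098) carried positive values too. Of these, Atp5b did not overlap between genotypes.

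Isoforms with low hippocampal levels varied more between the mice. Cox8b, the heart and muscle isoform, was at 3.84 and 11.8 TPM in mutants and 1.62 and 0.84 TPM in controls, a log2 fold change of 2.76 (SE 0.67, edgeR FDR 0.13). Cox6b2, the testis isoform of subunit 6B, was at 10.2 and 22.2 TPM against 9.48 and 9.95 TPM. Both were highest in mutant replicate 2, the library with the highest choroid plexus markers, and without it the log2 fold changes were 1.77 for Cox8b and 0.14 for Cox6b2. In nuclei, Cox8b and Cox6b2 were each highest in the CP class, at 10.8 and 65.8 UPM over all samples, and CP nuclei numbered 0 and 184 in mutants and 9 and 0 in controls. Their part in the bulk values was not tested.

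The 13 mitochondrial genes took up 5.51% and 4.84% of bulk expected counts in mutants and 4.64% and 4.64% in controls, and with their chr1 copies 7.37% and 6.46% against 6.15% and 6.20%. Both mutants were above both controls, with mutant replicate 1 the furthest. By gene, 0 of 13 passed the threshold (edgeR), and at an unadjusted p under 0.05 there were 5 higher and 1 lower. TPM did not overlap for 7, with 5 above and 2 below. DESeq2 called 5 of the 13 and 6 of the 81 nuclear-encoded members to which it gave an adjusted p, beside 8.56% of all such genes, so its count of nuclear-encoded members was near the background.

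The gene that was lower was mt-Co3, at 1872 and 1995 TPM in mutants against 4369 and 2990 TPM in controls, a log2 fold change of -0.85 (edgeR FDR 0.106). Summed with Gm28437, shown above, it came to 5981 and 5353 CPM against 5127 and 5280 CPM, and its log2 fold change turned to 0.15 (edgeR FDR 0.38). With copies summed, all 13 had a log2 fold change above 0, between 0.099 for mt-Nd4l and 0.32 for mt-Atp8, with a median of 0.18, and 80 of the 83 nuclear-encoded members did, with a median of 0.14. No member passed the threshold in that fit either, at an unadjusted p under 0.05 for 5 and 32 members, all higher. The values were 0.29 for mt-Nd1, 0.25 for mt-Nd2, 0.10 for mt-Nd3, 0.16 for mt-Nd4, 0.25 for mt-Nd5 and 0.30 for mt-Nd6, the subunits of complex I. They were 0.18 for mt-Cytb of complex III, 0.17 and 0.18 for mt-Co1 and mt-Co2 of complex IV and 0.14 for mt-Atp6 of complex V.

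In nuclei, the nuclear-encoded members stood lower in the mutants, the opposite direction to bulk. Their summed level over all nuclei was 2440 and 2539 UPM in mutants and 2964 and 3352 UPM in controls, 21.2% lower in the means. Within each of the 18 cell types, both mutants lay below both controls. The 18 types come from the same 4 samples, so they are not 18 separate results. The deeper mutant, replicate 2, had more UMIs per nucleus (median) than control replicate 1 in 17 of the 18 types and a lower summed level in all 17. Over all nuclei, the deeper replicate within each genotype, replicate 2, had the higher summed level. The part of depth in the result was not tested.

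The decrease of the mean summed level ran from 9.28% in the MC class to 42.9% in excitatory neurons 19. In GC it was 27.5%, from 3283 and 3522 UPM in controls to 2371 and 2560 UPM in mutants. In CA1, pyramidal neurons abundant in both genotypes, it was 16.1%, from 2378 and 2749 UPM to 2137 and 2166 UPM. Among glia it was 19.9% in astrocytes (4994 and 4907 to 3911 and 4016 UPM), 28.7% in oligodendrocytes (3702 and 4318 to 2740 and 2981 UPM) and 30.0% in microglia (4016 and 3926 to 2415 and 3142 UPM). The microglial value of mutant replicate 1 rests on only 13 nuclei with 21531 UMIs. The direction was thus shared by neurons and glia, with no test of a score over the members. The paper places most of the granule cells left in the mutant in the ventral dentate gyrus, with nearly all dorsal ones absent. Mutant and control GC nuclei thus differ in regional make-up, and its part in the GC values was not tested.

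**Figure D1:**
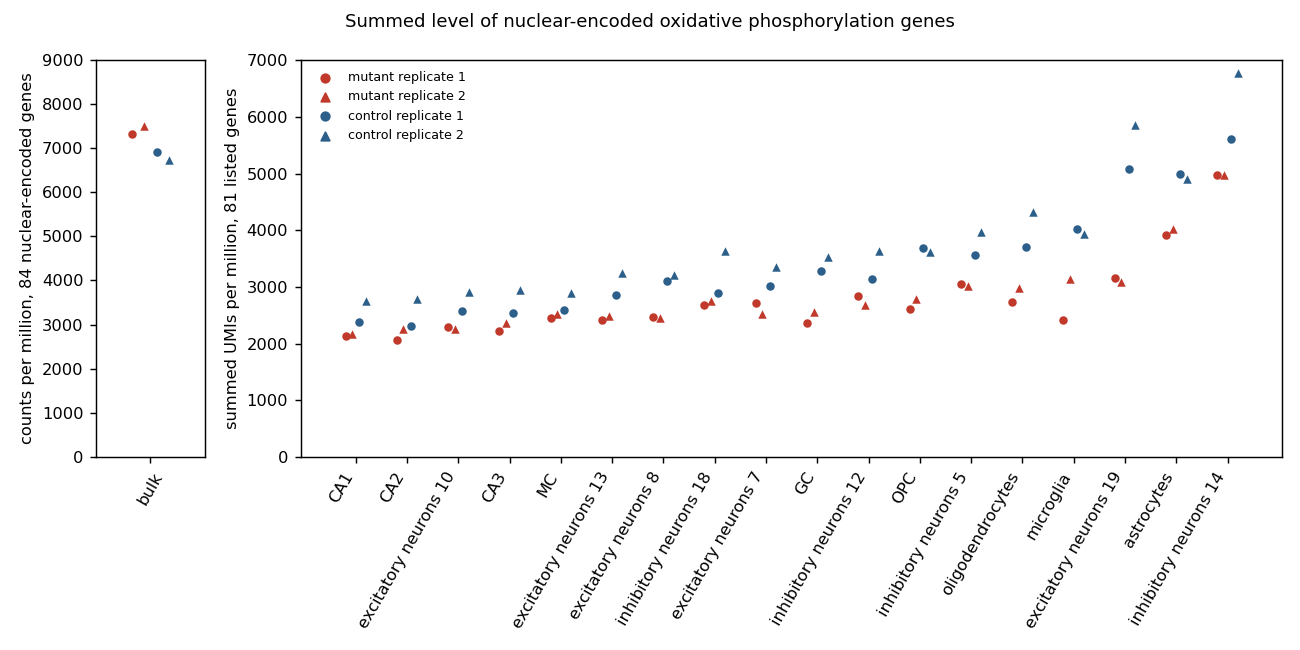
Summed level of nuclear-encoded oxidative phosphorylation genes in each sample, as CPM in bulk (left, 84 genes) and as UPM in nuclei by deposited cell type (right, the 81 genes listed there), with mutants in red and controls in blue. In bulk the mutants (7311 and 7506) lie above the controls (6916 and 6728), and in each of the 18 cell types both mutants lie below both controls.

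Gene by gene, the median log2 fold change of the nuclear-encoded members was below 0 in 18 of 18 types, while the median over all genes lay between -0.039 and 0.049. In GC it was -0.58, with 71 of the 75 members that passed the filter on low counts below 0 and 39 lower at an unadjusted p under 0.05 (8.43% of all genes). In CA1 it was -0.33, with 69 of 75 below 0 and 28 lower at that level (5.4% of all genes), and in astrocytes -0.37, with 66 of 76 and 25 (5.6%). The lowest median, -1.26, was in excitatory neurons 19, where only 10 members passed the filter on low counts, and the highest was -0.21 in MC. UPM values of both mutants lay below both controls for 59 of 75 members in GC (26.6% of all genes), 46 of 75 in CA1 (20.2%) and 47 of 76 in astrocytes (24.2%). They lay above for 1, 1 and 3 (21.6%, 23% and 17.1% of all genes).

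Few single genes passed the threshold with 2 mice a group. Over the 18 types, 3 nuclear-encoded members were called, all lower and all in GC, where 0.727% of 15002 genes were called lower, 1.04% higher and 1.77% in either direction. In the other types the share of all genes called was 0.604% in MC, 0.427% in astrocytes, 0.132% in OPC, 0.0892% in oligodendrocytes, 0.0735% in inhibitory neurons 12, 0.0562% in microglia, 0.0482% in excitatory neurons 10, 0.00992% in CA2, 0.00713% in inhibitory neurons 5 and 0% elsewhere. With few genes called at all in those types, 0 calls among the members were near the background. They were Ndufa4, Ndufc2 and Ndufb11. Ndufa4, first assigned to complex I and since found with complex IV, was at 29.0 and 32.1 UPM in mutants and 92.4 and 84.8 UPM in controls, a log2 fold change of -1.48 (SE 0.20, edgeR FDR 0.0088). Ndufc2, an accessory subunit of complex I, was at 21.7 and 12.3 UPM against 40.6 and 33.2 UPM (-1.39, SE 0.28, edgeR FDR 0.045). Ndufb11, an X-linked accessory subunit of complex I, was at 19.3 and 12.6 UPM against 33.4 and 32.6 UPM (-1.25, SE 0.26, edgeR FDR 0.046). The highest mutant value of each lay below the lowest control value.

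The calls rest on both mutants. Without mutant replicate 1 the edgeR FDR was 0.078, 0.11 and 0.11 for Ndufa4, Ndufc2 and Ndufb11, and without mutant replicate 2 it was 0.39, 0.57 and 0.54. In DESeq2 Ndufa4 was called and Ndufc2 and Ndufb11 were not (adjusted p 0.082 and 0.14). Within GC, the DGC markers were themselves at 1104 and 1070 UPM in mutants against 1567 and 1471 UPM in controls, with 0 of 7 markers at 0, and the excitatory markers at 517 and 554 UPM against 964 and 1010 UPM, with 0 of 4 at 0. The part of these markers in the result, and that of the mostly ventral make-up of mutant GC nuclei, was not tested.

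**Figure D2:**
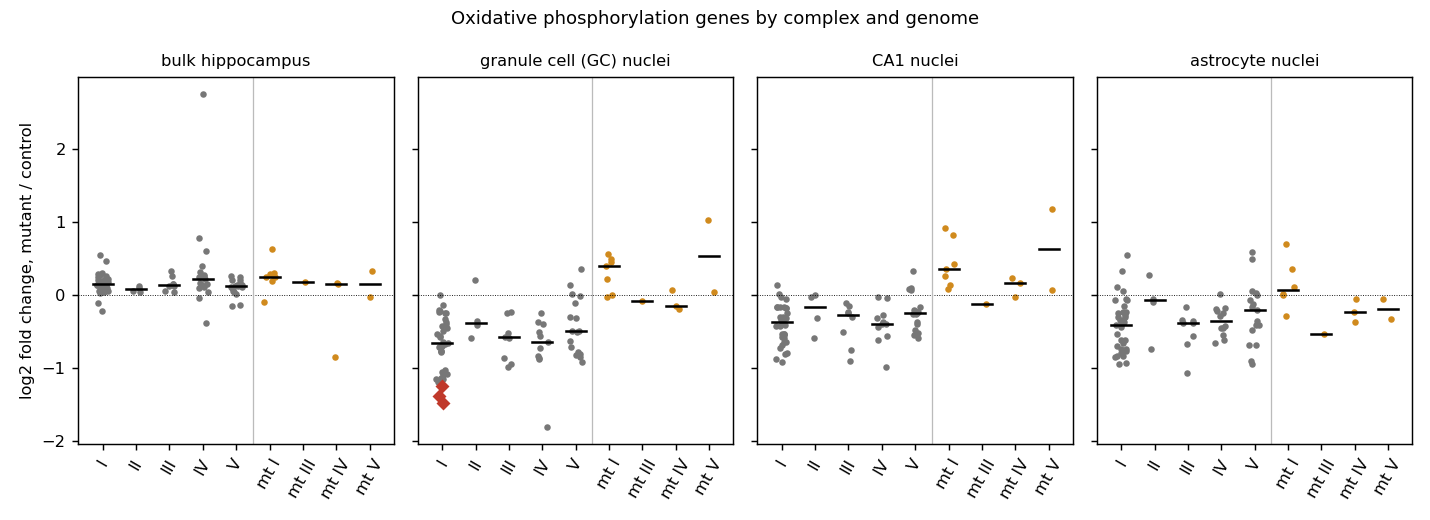
Log2 fold change of mutant over control for each member by complex, nuclear-encoded in grey and mitochondrially encoded (mt) in orange, in bulk and in GC, CA1 and astrocyte nuclei, with black bars at the medians and red diamonds for members past edgeR FDR 0.05. The nuclear-encoded medians lie above 0 in bulk (0.077 to 0.21) and below 0 in the 3 classes of nuclei. The 3 called genes in GC are Ndufa4, Ndufc2 and Ndufb11, all plotted under complex I by symbol.

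The promoters of the 3 called genes are shown because these genes moved together, with that of Cox8a, which ranked first in bulk. Each runs from 250 bases before to 50 bases after a RefSeq transcript start (GRCm38.p6), 5′ to 3′ on the gene's strand. Matches to the motifs searched are in capitals. Ndufa4 is at chr6:11907401-11907700 (minus), Ndufc2 at chr7:97399753-97400052 (plus), Ndufb11 at chrX:20617570-20617869 (minus) and Cox8a at chr19:7217567-7217866 (minus).
Ndufa4: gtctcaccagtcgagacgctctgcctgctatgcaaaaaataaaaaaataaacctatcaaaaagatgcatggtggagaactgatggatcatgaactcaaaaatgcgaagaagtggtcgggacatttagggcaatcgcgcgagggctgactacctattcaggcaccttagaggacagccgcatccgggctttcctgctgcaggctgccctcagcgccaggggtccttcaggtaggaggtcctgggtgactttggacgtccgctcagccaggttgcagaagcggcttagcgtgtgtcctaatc
Ndufc2: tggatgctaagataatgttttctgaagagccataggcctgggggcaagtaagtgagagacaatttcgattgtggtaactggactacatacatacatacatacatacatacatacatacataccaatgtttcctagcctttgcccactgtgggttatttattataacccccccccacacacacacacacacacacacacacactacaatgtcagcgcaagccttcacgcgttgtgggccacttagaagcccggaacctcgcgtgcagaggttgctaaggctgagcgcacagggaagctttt
Ndufb11: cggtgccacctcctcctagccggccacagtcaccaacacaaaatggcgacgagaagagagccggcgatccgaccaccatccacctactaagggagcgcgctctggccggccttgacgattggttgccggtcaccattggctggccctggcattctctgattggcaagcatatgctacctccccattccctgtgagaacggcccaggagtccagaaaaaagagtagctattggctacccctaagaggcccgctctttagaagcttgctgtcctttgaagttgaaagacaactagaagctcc
Cox8a: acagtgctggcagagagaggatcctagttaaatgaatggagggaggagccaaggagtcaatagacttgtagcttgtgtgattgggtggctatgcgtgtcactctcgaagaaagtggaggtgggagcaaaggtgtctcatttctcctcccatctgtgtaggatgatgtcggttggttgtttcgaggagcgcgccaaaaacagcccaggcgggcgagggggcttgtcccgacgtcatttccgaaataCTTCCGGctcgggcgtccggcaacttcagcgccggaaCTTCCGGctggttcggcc

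RefSeq promoter windows were matched for 69 of the 84 nuclear-encoded members, 75 windows in all, and searched on both strands beside all 32851 windows. The NRF1 motif GCGCATGCG was in 10.7% of member windows and 1.75% of all windows, and the YY1 motif AAGATGGCG was in 12% and 1.4%. The ETS motif CCGGAAG was in 21.3% and 8.86%, the SP1 motif GGGGCGGGG in 16% and 11.4%, the E-box CACGTG in 12% and 7.15%, and TATAAA in 10.7% and 13.6%. These are the binding letters of factors known for nuclear genes of the respiratory chain, set beside general promoter motifs. The Cox8a window held the ETS motif in 2 places, and the windows of Ndufa4, Ndufc2 and Ndufb11 held none of the 6. A match is a description of letters and no site was tested.

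Ndufa4 was the member most often among the lowest p-values, in 9 of the 18 types, followed by Ndufb11 in 7 and Ndufc2 in 4. Its log2 fold change was below 0 in 17 of 17 types where it was tested, and both mutants lay below both controls in 16 of them. In CA1 it was at 31.8 and 26.0 UPM against 46.6 and 52.5 UPM (-0.80, edgeR FDR 0.42), and in CA3 at 31.0 and 23.7 UPM against 49.3 and 55.4 UPM (-0.95, edgeR FDR 0.17). In astrocytes it was at 74.5 and 70.4 UPM against 139 and 110 UPM (-0.74, edgeR FDR 0.18) and in oligodendrocyte precursors at 26.3 and 55.2 UPM against 117 and 107 UPM (-1.12, edgeR FDR 0.16). The 1 type with overlap was MC (37.5 and 24.7 against 31.6 and 59.7 UPM). In bulk the same gene was at 754 and 762 TPM in mutants and 714 and 677 TPM in controls, the other way.

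Other members with a value below 0 in each type where they were tested included Ndufb11 (15 types), Uqcrfs1 (15), Cox5a (18), Atp5f1 (18), Atp5g1 (17) and Cox8a (18). For Atp5g1, which encodes the c-ring subunit of complex V, both mutants lay below both controls in all 17 types. In GC it was at 29.0 and 33.3 UPM against 51.4 and 55.2 UPM and in CA1 at 30.6 and 27.8 UPM against 42.6 and 42.0 UPM. Uqcrfs1 was at 9.66 and 11.97 UPM against 20.2 and 22.3 UPM in GC. Cox5a was at 33.8 and 32.4 UPM against 57.1 and 64.9 UPM in GC. The GC values of Atp5g1, Uqcrfs1 and Cox5a did not overlap, at edgeR FDR 0.12, 0.16 and 0.065.

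Some members did not share the direction. Sdha was below 0 in 8 of 17 types, Sdhc, a membrane anchor of complex II, in 6 of 16, and Cox7a2l, which takes part in supercomplexes of complexes III and IV, in 5 of 17. Atp5a1, the alpha subunit of complex V, was at 96.6 and 99.3 UPM against 74.997 and 138 UPM in GC, so that the mutants lay between the controls. Ndufs1 had a mean below that of the controls in GC, but its values overlapped (72.4 and 61.0 against 85.1 and 69.4 UPM). Atp5sl was below 0 in 1 of 14 types.

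Atp5o, the stalk subunit of complex V, was above 0 in 18 of 18 types, and its log2 fold changes had a median of 0.37. The nuclei table lists this symbol for 2 overlapping loci on the minus strand. The coding gene spans 6.47 kb (chr16:91925214-91931687) and held 2.62% to 4.16% of the summed UMIs. A locus of 242.58 kb (chr16:91684398-91926982) held the rest, at 178 and 281 UPM in mutants and 168 and 243 UPM in controls. The coding gene itself was at 6.46 and 7.57 UPM against 7.29 and 9.18 UPM, with overlap. Without the longer locus the summed level over all nuclei was 2262 and 2257 UPM in mutants and 2796 and 3109 UPM in controls.

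The span of a gene moved with its difference in nuclei. Over all genes in GC, the median log2 fold change was -0.24 for genes under 10 kb, -0.043 from 10 to 50 kb and 0.12 at 50 kb or more. The nuclear-encoded members of GC under 10 kb had a median of -0.72 (48 of 50 below 0) and those from 10 to 50 kb -0.36 (21 of 23). In CA1 all genes ran at -0.11, -0.0049 and 0.094 over these classes of span, and members under 10 kb and from 10 to 50 kb at -0.40 and -0.18. In astrocytes all genes ran at -0.23, -0.022 and 0.11, and members at -0.42 and -0.20. Members thus had the lower medians in both classes of span in the 3 cell types, and 50 of the 75 members tested in GC are under 10 kb. In bulk, all genes ran at 0.029, 0.0094 and -0.012, and members at 0.17 and 0.11. The part of gene span in the result was not tested.

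The genotype difference in GC was set against that in CA1 in 1 fit over both types, which come from the same 4 mice, with the mouse as a term. Of 16986 genes, 428 (2.52%) passed the threshold in this test, and of the members 1 did, a count not above that share. The difference in the make-up of GC given above enters this test, and its part was not tested. Cox8a was at 55.5 and 96.6 UPM in mutant and 143 and 158 UPM in control GC nuclei, and at 63.6 and 92.6 UPM against 90.3 and 115 UPM in CA1. The difference of the log2 fold changes, GC minus CA1, was -0.54 (SE 0.15, edgeR FDR 0.043). The next was Ndufa4 at -0.60 (edgeR FDR 0.075). Without any 1 of the samples the call of Cox8a was lost, with values of -0.43 without mutant replicate 1, -0.81 without mutant replicate 2, -0.50 without control replicate 1 and -0.61 without control replicate 2, and edgeR FDR between 0.19 and 0.56.

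Mitochondrial transcripts made up a small and uneven share of the nuclei. Over all nuclei the 13 genes took 0.0388% and 0.0567% of UMIs in mutants and 0.0466% and 0.0611% in controls, which overlapped. Without the 10% of nuclei with the highest share the values were 0.0309% and 0.0397% against 0.0385% and 0.0369%. The genotypes overlapped in 13 of 18 types. Both mutants lay above both controls in 3 (MC, excitatory neurons 13 and inhibitory neurons 12) and below in 2 (astrocytes and excitatory neurons 19). In GC the shares were 0.0425% and 0.0596% in mutants and 0.0596% and 0.0488% in controls.

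Gene by gene, 0 mitochondrial members were called by edgeR in the 18 types. At an unadjusted p under 0.05 a type had 0 to 2 higher members, and excitatory neurons 19 had 3 lower ones. The median log2 fold change was below 0 in 4 of 18 types. In GC it was 0.061, and -0.58 without mutant replicate 2, and in CA1 it was 0.23 with 11 of 13 above 0. Set beside each other by complex, the medians of both genomes had opposite signs in some complexes. In CA1 the nuclear-encoded members of complex I had a median of -0.37 and the mitochondrial ones 0.36, and in GC -0.65 and 0.39. The summed levels of the mitochondrial complex I genes overlapped between genotypes in CA1 (96.2 and 118 UPM in mutants against 75.3 and 99.4 UPM in controls). They also overlapped in GC (142 and 169 against 147 and 139 UPM), where mutant replicate 1 had 176 mitochondrial UMIs in all. For complex IV the medians were -0.40 and 0.16 in CA1, and both were below 0 in GC at -0.65 and -0.16. The difference between the 2 genomes was not tested.

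By cell type, the mitochondrial share was highest in the EC class. It had 2.28% and 4.73% in mutants and 5.38% in control replicate 2, from 4, 11 and 9 nuclei, with none in control replicate 1. Inhibitory neurons 14, the class with endothelial and pericyte markers, had 0.220% and 0.430% in mutants against 0.220% and 0.714% in controls. Astrocytes had 0.0559% and 0.0907% against 0.0989% and 0.0912%, and oligodendrocytes 0.0538% and 0.102% against 0.0924% and 0.0928%. CA1 had 0.0341% and 0.0419% against 0.0314% and 0.0362%, so that each astrocyte value lay above each CA1 value. The median share per nucleus in inhibitory neurons 14 was 0.0451% and 0.0906% in mutants and 0.0866% and 0.0956% in controls. Those of OPC were near it, at 0.0529% and 0.0816% against 0.0928% and 0.0735%. Single nuclei of inhibitory neurons 14 reached up to 6.09%, so its summed shares rest in part on nuclei with high shares. The classes were made from the same nuclei, and their order is a description without a test.

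**Figure D3:**
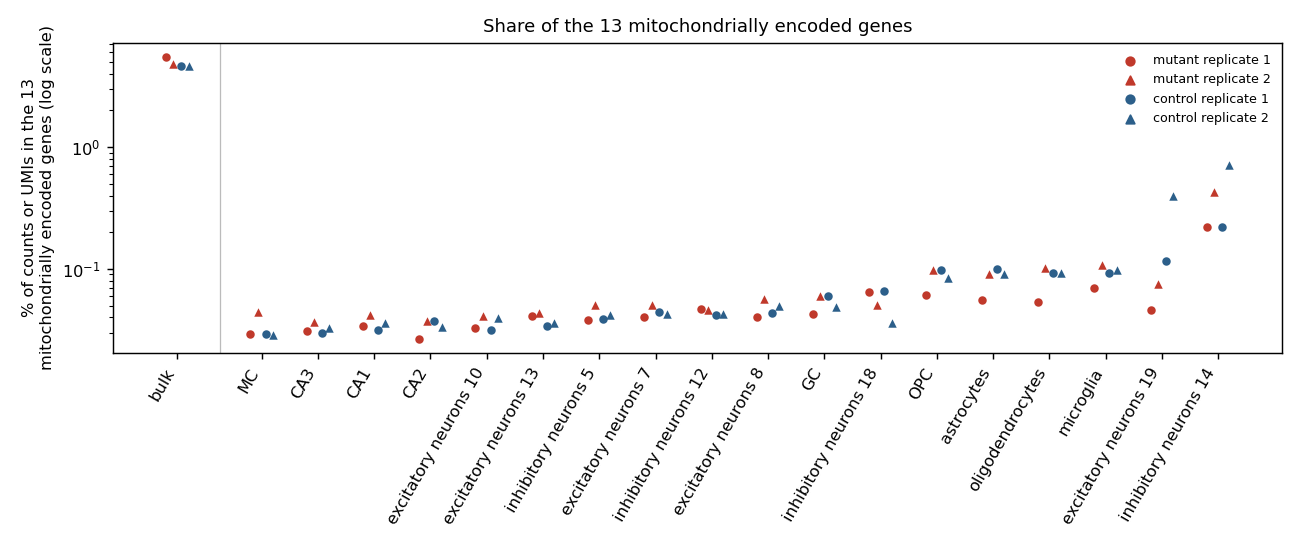
Percent of counts (bulk) or UMIs (nuclei) in the 13 mitochondrially encoded genes, on a log axis, for each sample and each of the 18 deposited cell types, with mutants in red and controls in blue. Bulk libraries lie between 4.64% and 5.51%, most neuronal classes near 0.03% to 0.06%, and inhibitory neurons 14 up to 0.714%.

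In control nuclei the summed level of the nuclear-encoded members also differed between types. In the 18 types the control means ran from 2549 UPM in CA2 and 2564 UPM in CA1 to 4951 UPM in astrocytes, 5471 UPM in excitatory neurons 19 and 6191 UPM in inhibitory neurons 14. The control values of CA1 and CA2 overlapped (2378 and 2749 against 2305 and 2793 UPM). Those of inhibitory neurons 14 (5610 and 6772 UPM) and excitatory neurons 19 (5081 and 5860 UPM) also overlapped, and both control values of each lay above those of astrocytes (4994 and 4907 UPM). Among the 18 tested types, which leave out EC and CP, 46 of the 81 nuclear-encoded members listed were highest in inhibitory neurons 14 and 20 in excitatory neurons 19. In the same ranking, 12 of the 13 mitochondrial members were highest in inhibitory neurons 14. These mitochondrial values are sums over that class, in which single control nuclei reached shares of 1.63% and 4.51%, against medians of 0.0866% and 0.0956%. The 9 EC nuclei of control replicate 2 stood higher still, with a summed level of the nuclear-encoded members of 15971 UPM and mt-Atp6 at 12674 UPM.

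Several paralogous subunits differed between types. Ndufa4l2, a paralogue of Ndufa4, was at 45.1 and 77.5 UPM in mutants and 76.7 and 37.9 UPM in controls in inhibitory neurons 14, and with the control nuclei pooled its level there was 3.78 times that of microglia, the next type (50.3 against 13.3 UPM). Cox4i2, the lung isoform of complex IV subunit 4, was at 12.9 and 21.1 UPM against 8.53 and 26.0 UPM there. With the control nuclei pooled its level there was 3.75 times that of the next type (20.4 against 5.44 UPM). That next type held 1 and 0 UMIs of Cox4i2 in controls, so the ratio rests on 1 UMI. Microglia held 0 and 12 UMIs of Ndufa4l2 in controls, so their level rests on 1 control sample. Both genes were higher still in the few EC nuclei, at 141 and 54.3 UPM over all samples. The genotypes overlapped for both genes. In the same pooled control nuclei, mt-Nd3 had the highest ratio of first to second type among genes at 20 UPM or more (121 against 28.4 UPM), and mt-Nd1 (239 against 70.7 UPM) and mt-Atp6 (1131 against 370 UPM) came after Cox4i2, all highest in inhibitory neurons 14.

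Other isoforms were highest in other classes. Cox6a2, the heart and muscle isoform of subunit 6A, was highest in inhibitory neurons 12 (12.5 and 2.40 UPM in mutants and 8.57 and 6.35 UPM in controls, from 5 to 8 UMIs a sample) and inhibitory neurons 5 (3.90 and 2.94 against 5.42 and 2.75 UPM). Cox6b2, besides the CP class, was at 28.7 and 25.1 UPM against 32.2 and 31.5 UPM in astrocytes and at 0.5 UPM over all samples in CA1. Cox7b2 was at 14.3 and 28.2 UPM against 29.5 and 34.0 UPM in astrocytes and at 6.2 UPM in CA1. Of their ubiquitous partners, Cox6a1 was at 102 UPM in astrocytes and 86.3 UPM in inhibitory neurons 12 over all samples, and Cox7b at 126 and 119 UPM. Cox6b1 ranked the tested types as Cox6b2 did at the top, with inhibitory neurons 14 first and astrocytes second in pooled control nuclei (114 and 68.6 UPM for Cox6b1, 39.4 and 31.8 UPM for Cox6b2).

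**Figure D4:**
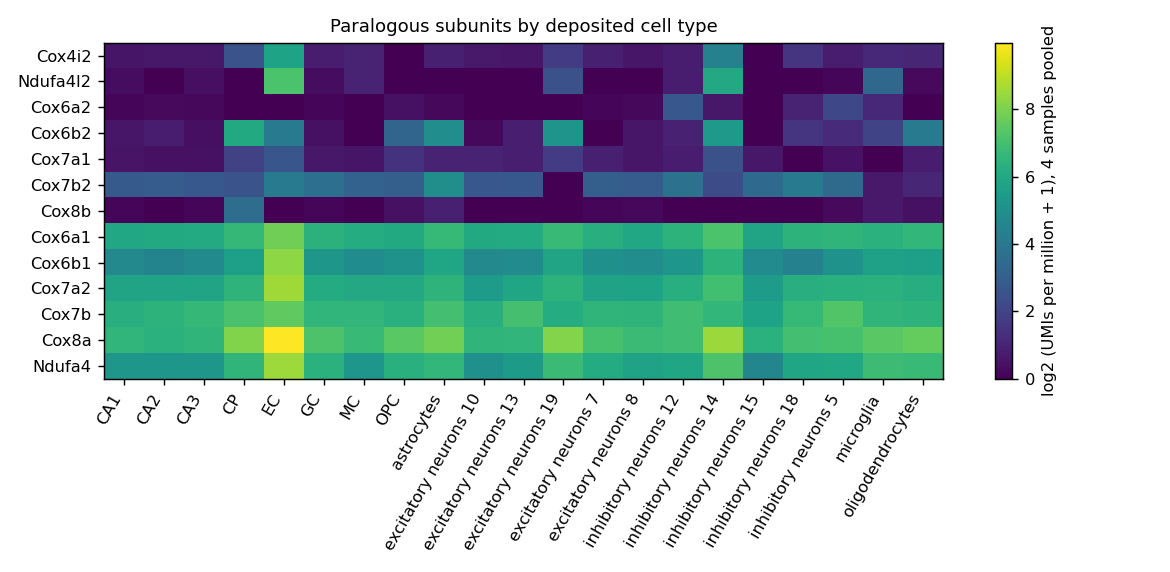
Level of paralogous subunits in each deposited cell type, as log2 of UPM plus 1 with the 4 samples pooled (rows, genes; columns, classes; brighter, higher). Ndufa4l2 (141 UPM) and Cox4i2 (54.3 UPM) are brightest in EC and next in inhibitory neurons 14, Cox6a2 in inhibitory neurons 12, and Cox8b in CP.

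Bulk and nuclei were compared directly over the 4 libraries of each kind with genotype in the model. The assays differ in compartment, in priming (3′ ends in nuclei) and in the counting of introns all at once, so the values compare libraries. Of 19178 genes, 40.1% were higher and 44.5% lower in bulk. All 13 mitochondrial members were higher in bulk, with a median log2 ratio of 7.26. Of 81 nuclear-encoded members, 57 were higher and 8 lower, with a median of 1.07, beside -0.11 for all genes. The median was 0.74 in control libraries alone and 1.33 in mutant libraries alone, the mutants being higher in bulk and lower in nuclei.

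The highest ratios were those of mt-Nd6 (9.90), mt-Nd5 (9.21), mt-Cytb (7.96), mt-Atp8 (7.48) and mt-Co1 (7.37). mt-Nd6 is the only protein-coding gene on the light strand of the mitochondrial genome. The lowest mitochondrial ratios belonged to genes with chr1 copies, mt-Co3 (3.13), mt-Atp6 (3.33) and mt-Nd3 (4.41), and with the copies summed they were 5.66, 6.51 and 5.78. Among nuclear genes as listed, Atp5b, the catalytic beta subunit of complex V, was highest at 3.68, with 831 and 904 CPM in mutant bulk against 55.3 and 55.9 UPM in mutant nuclei, and 838 and 809 CPM in control bulk against 60.3 and 84.6 UPM in control nuclei.

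The 5 lowest members were Cox7b2 (-5.14), Atp5g2 (-2.68), Ndufs4 (-1.55), Atp5s (-1.17) and Atp5o (-1.06). Cox7b2 and Ndufs4 span 105382 and 100464 bases, both over 50 kb, a class of span in which all genes had a median of -1.04. The nuclei value of Atp5o was nearly all from the longer locus described above, and with the coding gene alone its ratio was 3.82, above that of Atp5b, and 58 nuclear-encoded members were higher and 7 lower in bulk. Atp5g2 is one of the genes with more counts in copies, and summed with them its ratio was 0.52. Cox7c went from -0.61 to 1.01, Atp5l from -0.84 to 0.60, Ndufb4 from 0.12 to 2.31 and Ndufs5 from 0.058 to 1.35 in the same way. With copies summed, 62 nuclear-encoded members were higher and 5 lower in bulk.

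**Figure D5:**
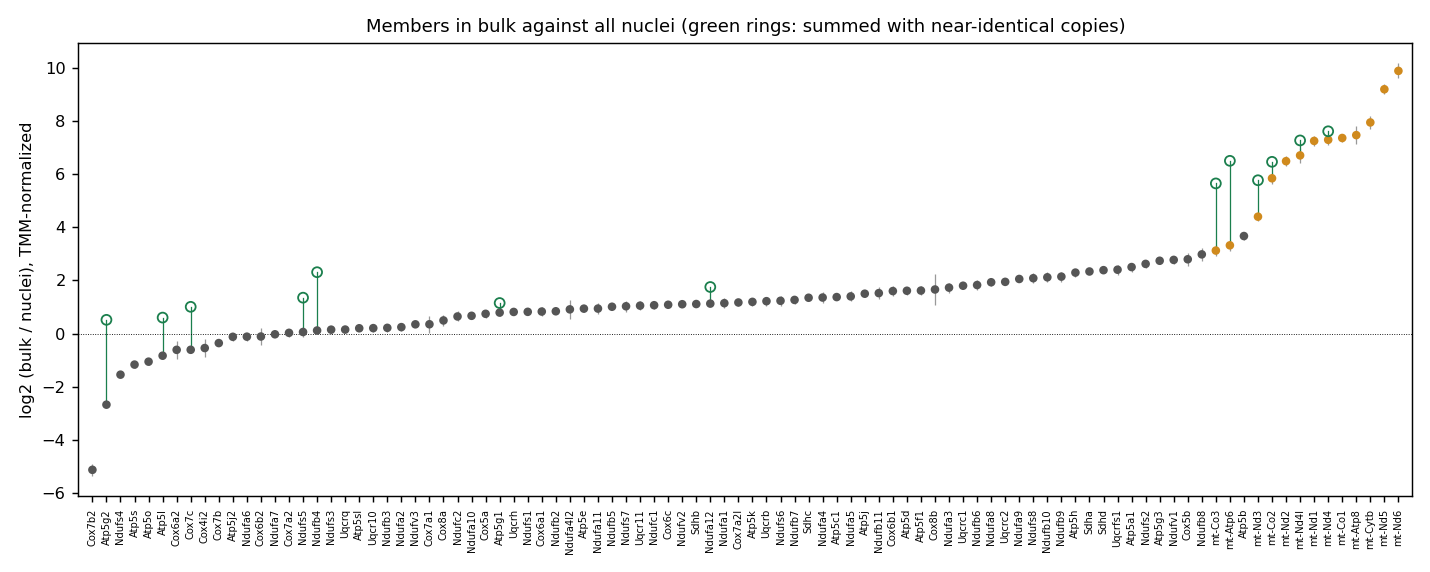
Log2 ratio of bulk over nuclei for each member (points; bars, SE; nuclear-encoded in grey, mitochondrial in orange), ordered from low to high, with green rings where summing near-identical copies moved the value. Ratios run from -5.14 for Cox7b2 to 9.90 for mt-Nd6, and the rings lift mt-Co3 from 3.13 to 5.66 and Atp5g2 from -2.68 to 0.52.

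Genes of neighbouring pathways gave the following counts. In bulk, 17 of 17 genes of the tricarboxylic acid cycle and 15 of 16 glycolytic genes had a log2 fold change above 0, with medians of 0.10 and 0.12, whereas assembly factors of the respiratory complexes (26 of 45, median 0.026) and factors that express mitochondrial DNA (10 of 19, median 0.034) lay near the median of all genes.  In nuclei the median was below 0 in 17 of 18 types for the tricarboxylic acid cycle (-0.41 to 0.0054), 18 for glycolysis (-0.90 to -0.20), 16 for assembly factors (-0.26 to 0.62) and 15 for expression of mitochondrial DNA (-0.29 to 0.30). The 2 calls were in GC and lower, Aldoa, an aldolase (log2 fold change -1.48, edgeR FDR 0.0088), and Pgam1, a phosphoglycerate mutase (-1.26, edgeR FDR 0.019), both glycolytic.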

How the data were processed

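Bulk RNAseq and snRNAseq of adult mouse hippocampus were analysed from the deposited tables, 2 mutant and 2 control mice each. The authors aligned bulk reads to mm10 with RSEM 1.3.0 and Bowtie2 2.2.9 and deposited expected counts and TPM per gene, with a matrix of normalized signal (expected counts divided by 1 factor per library). They aligned nuclei with Cell Ranger 3.1.0 to an index of mm10 that counts introns, and deposited UMI counts with cell types from clustering after batch correction. The deposited size factor, a ratio of a nucleus's UMIs to the mean, was not used. The annotation version is not given in the sources used here, and 0 columns of per-sample values were left out.

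Expected counts were rounded. UMI counts were summed for each mouse within a cell type, and a type was tested where no sample had fewer than 10 nuclei. The study used EBSeq and Monocle 3. Here genotypes were compared over all genes by the quasi-likelihood test of edgeR 4.0.16 (TMM, filterByExpr, R 4.3.3), with Benjamini-Hochberg adjustment at FDR 0.05. Bulk and nuclei were compared with genotype as a covariate, and GC and CA1 by an interaction with the mouse as a term. Near-identical copies were found with BLAST+ 2.17.0. The scripts were tested on simulated data.

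The 97 members and the gene lists were chosen with earlier results of these data known. Genes were named by rule: the mitochondrial genes, isoform pairs, core subunits, called members (else the 3 lowest p-values), the 5 highest and 5 lowest ratios of bulk to nuclei, and the 5 highest ratios of first to second cell type at 20 UPM or more. Atp5o, Sdhc, Cox7a2l, Atp5sl, Atp5f1, the members with copies and the neighbouring genes Aldoa and Pgam1 were named after their values were seen. Alternatives were DESeq2 1.42.0, no filter on low counts, limma 3.58.1 on log2(signal + 1), other totals, a replicate block, and leaving out each sample. Summed copies, the sums and ratios without the longer Atp5o locus, the interaction without each sample and the run without misnamed classes were added after seeing the data. No doublet caller was run.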

Additional observations from a re-analysis of the deposited data

Results flagged for a closer look

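The genotype difference of Cox8a was larger in GC than in CA1 nuclei in a test of the difference itself. It was -0.54 on the log2 scale (SE 0.15, edgeR FDR 0.043). In this test 2.52% of all genes passed, so 1 call among the members was not above the background. Both mutants lay below both controls in GC, where the values (55.5 and 96.6 against 143 and 158 UPM) did not overlap, while the CA1 values (63.6 and 92.6 against 90.3 and 115 UPM) overlapped. The value kept its sign but not its call without any 1 sample, at edgeR FDR 0.19 to 0.56.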

How the results depend on the processing

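With 2 mice a group, counts of calls moved most. For bulk DESeq2 the share of all genes called was 8.56%. For the other settings of this paragraph that share is not given beside the counts. Those counts therefore cannot tell a change in the members from a change in all genes. In bulk, the 0 nuclear-encoded calls became 6 in DESeq2, 11 with no filter on low counts and 0 to 10 when 1 sample was left out, and the 0 mitochondrial calls became 5, 6 and 0 to 9. The bulk mitochondrial median ran from 0.072 (without mutant replicate 1) to 0.33 (without mutant replicate 2). In nuclei, the 3 nuclear-encoded calls became 31 with no filter and 0 (without mutant replicate 2) to 13 (without mutant replicate 1 or control replicate 2), and the 0 mitochondrial calls became 6 with no filter and 1 to 6 when 1 sample was left out. The GC median of nuclear-encoded members ran from -0.78 to -0.53, and that of mitochondrial ones from -0.58 (without mutant replicate 2) to 0.25. Types with a mitochondrial median below 0 ran from 2 to 12, and were 2 without the misnamed classes. The 1 interaction call became 0 when any sample was left out.

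The labels give no shared batch for a replicate number, and 2 pairs are too few to show one from the data. The deviations of same-numbered samples correlated at 0.016 in bulk, at 0.038 to 0.37 within cell types and at 0.44 over all nuclei. With the replicate block, tests of nuclear-encoded members gave 89 calls summed over the types, all lower, which is 7.7% of their tests. Those of mitochondrial members gave 1 call, higher, or 0.599%. Over the tests of all genes, 1.6% were called lower and 1.54% higher. A member called in several types is counted once for each, and the types come from the same mice, so these are not counts of distinct genes. In bulk the block divides the libraries as Xist does, and 0 members were called with it.

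The bulk-to-nuclei median was 0.74 in controls and 1.33 in mutants. Bulk sums per 1000000 counts outside the mitochondrial genome were 7737 and 7888 against 7252 and 7055. Mitochondrial shares without the 10% of nuclei with the highest share were 0.0397% (mutant replicate 2) and 0.0369% (control replicate 2), and sums without the longer Atp5o locus were 2262 and 2257 UPM in mutants. Signs turned for mt-Nd3 (0.10), mt-Co3 (0.15) and mt-Atp6 (0.14) with copies summed. Leaving out 1 library gave -0.068 (without mutant replicate 1) to 0.34 for mt-Co2, -0.12 (without mutant replicate 1) to 0.65 for mt-Atp8, and -0.32 to 0.20 (without mutant replicate 1) for mt-Atp6, which was 0.044 without control replicate 2. Other causes were not tested.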
